A study of Mus musculus with 2 samples.

Results

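Retnlg and Mmp8 high neutrophils were 383 of the 4390 barcodes in the 2 single-cell libraries of this study, with 40 from the library labelled 4T1p and 343 from the one labelled 4T1m. Members were chosen from the counts of each barcode. A barcode had to hold 250 to 5000 detected genes, at most 27000 unique molecular identifiers (UMIs, 1 per captured RNA molecule) and at most 1 mitochondrial UMI in 8, limits that 3220 barcodes met. It had to be a neutrophil barcode, with at least 5 UMIs summed over S100a8, S100a9, G0s2 and Csf3r and more of these than of the macrophage genes Apoe, C1qa, Lyz2 and Csf1r. It then had to hold at least 5 UMIs of Retnlg and Mmp8 together, fewer than 5 UMIs of the granule genes Camp, Ngp and Ltf together, and a UMI of fewer than 3 of the 7 interferon genes Rsad2, Ifit1, Ifit2, Ifit3, Isg15, Cmpk2 and Usp18. The group is therefore a range of 1 summed count and not a cell type of its own, and the values that chose the members are described below without support being drawn from them.

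The cells were GR-1+ cells, pulled with magnetic beads from tumors grown in the mammary fat pad of female BALB/c mice aged 8 to 10 weeks, and all mice of both groups had received anti-PD1 antibody for up to 2 weeks. The 4T1p tumors came from the parental 4T1 mouse breast carcinoma line and resist anti-PD1. The 4T1m tumors came from a polyclonal 4T1 line mutagenized with MNNG, a DNA alkylating agent, and respond to it. Each group was 1 library made with 10x Genomics 3′ chemistry, the number of mice behind it is not given in the sources used here, and the intervals printed below are 95% intervals that cover counting error only, so no comparison of the libraries has a test. The libraries held 1641 and 2749 barcodes, 9021132 and 14840190 UMIs and medians of 2066 and 2763 UMIs per barcode in 4T1p and 4T1m. The study's methods give this pair of medians the other way round, and the libraries are called by their labels throughout. Were the labels exchanged, every direction of 4T1m over 4T1p given below would reverse, which the files cannot settle. No barcode occurred in both libraries.

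Neutrophils are short-lived granulocytes that mature in the bone marrow, fill their granules in a fixed order of primary, secondary and tertiary proteins, and then leave for the blood. The bead antibody binds Ly6G, which mature mouse neutrophils carry, and Ly6C, which monocytes carry. Retnlg encodes resistin-like gamma, a small secreted protein of mature blood and marrow neutrophils, and Mmp8 encodes neutrophil collagenase, a granule protease. Prok2 encodes prokineticin 2, a secreted peptide of myeloid cells with angiogenic activity, Stfa2 encodes a stefin A inhibitor of cysteine cathepsins, and Wfdc21 encodes a small whey acidic protein family member. Neutrophils in tumors are known to lower genes of the circulating state and to raise chemokine and inflammatory genes.

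The genes behind the choice sit on separate chromosomes of GRCm38, Retnlg (ENSMUSG00000022651) on chromosome 16 at 48872621 to 48874496 on the plus strand and Mmp8 (ENSMUSG00000005800) on chromosome 9 at 7558456 to 7568485 on the plus strand. Among the other markers, Prok2 lies on chromosome 6 at 99711299 to 99726392 on the minus strand, Stfa2 on chromosome 16 at 36403992 to 36408457 on the minus strand, and Wfdc21 on chromosome 11 at 83746940 to 83752642 on the plus strand. RefSeq windows of the 250 bases before the RefSeq start (GRCm38.p6) were at hand for 4 of the 5 markers, and positions below count from that start. The RefSeq start can differ from the gene bounds printed above. The windows of the pair of genes that defined the members are shown. They are chr16:48872358-48872607 for Retnlg and chr9:7558179-7558428 for Mmp8, both on the plus strand, 5′ to 3′, with matches to the C/EBP letters TTNNGNAA and the PU.1 letters GAGGAAG on either strand in capitals.
Retnlg: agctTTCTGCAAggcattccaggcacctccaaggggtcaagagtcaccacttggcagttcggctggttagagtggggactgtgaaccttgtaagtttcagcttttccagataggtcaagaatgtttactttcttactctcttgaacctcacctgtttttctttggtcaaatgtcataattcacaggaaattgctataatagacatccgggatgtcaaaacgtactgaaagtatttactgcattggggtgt
Mmp8: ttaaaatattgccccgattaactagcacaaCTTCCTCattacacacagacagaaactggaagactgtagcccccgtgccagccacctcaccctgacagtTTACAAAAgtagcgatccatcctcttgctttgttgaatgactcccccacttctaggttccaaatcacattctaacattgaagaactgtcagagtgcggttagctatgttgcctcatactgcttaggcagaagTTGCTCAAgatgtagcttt
The Retnlg window held 1 C/EBP match, TTCTGCAA, 246 to 239 bases before the start. The Mmp8 window held 2 C/EBP matches on the opposite strand, 151 to 144 and 19 to 12 bases before the start, and 1 PU.1 match on the opposite strand at 220 to 214. C/EBP and PU.1 factors are known regulators of neutrophil genes. Prok2 held a C/EBP match at 211 to 204 and, on the opposite strand, the letters TATAAA at 46 to 41. Stfa2 held a C/EBP match on the opposite strand at 40 to 33. The Stfa2 window, 36408364 to 36408613, overlaps the gene bounds printed above, and this match lies within the overlap. The matches did not overlap one another. Such matches are common, since TTNNGNAA occurred on either strand in 36.8% of 32536 distinct RefSeq windows of this length, GAGGAAG in 10.7% and TATAAA in 12.3%. GC content was 43.2% in the Retnlg window, 44.8% in that of Mmp8, 48.8% in that of Stfa2 and 73.6% in that of Prok2. A match describes letters and not a bound site.

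The barcodes carried neutrophil genes in both libraries, as their label says. Of 22 neutrophil identity genes that took no part in the choice, a median of 13.5 (range 6 to 21) had a UMI in a 4T1p member and 14 (range 2 to 22) in a 4T1m member, against medians of 2 and 4 in the 778 and 915 monocytic barcodes. Levels below are given as CPM, the UMIs of a gene as a share of all UMIs of the group scaled to a common total of 1e6. S100a9, a subunit of calprotectin, stood at 85266 CPM in 4T1p and 82971 in 4T1m, and Csf3r, the receptor for G-CSF, at 1028 and 979.6 (both were part of the choice). Ly6g, the defining surface marker of mouse neutrophils, had 24 UMIs (136 CPM) and 174 UMIs (134 CPM), with a UMI in 27.5% and 21.6% of members. The primary granule genes Mpo, Elane, Ctsg, Ms4a3 and Fcnb, which mark promyelocytes, had no UMI in either library, and Mki67, a marker of dividing cells, had 1 and 23 UMIs. Genes of B cells, of T and NK cells and of eosinophils, basophils and mast cells were at or near 0. The 5 B cell genes summed to 0 and 7 UMIs, 7 T and NK cell genes to 5 and 23, of which Cd3d made 5 and 22, and 10 eosinophil, basophil and mast cell genes to 1 and 14. Genes of monocytes and macrophages were not near 0. The 18 listed summed to 1228 UMIs (6976 CPM) in 4T1p and 3397 (2616 CPM) in 4T1m, with a UMI in 95% and 97.4% of members, led by Cd74 and by Lyz2, which neutrophils also express. The 11 stroma, endothelium, erythroid and platelet genes summed to 13 and 486 UMIs, with a UMI in 17.5% and 20.1% of members. Ptprc, which encodes the leukocyte antigen CD45, had a UMI in 80% of the 4T1p members and 93.6% of the 4T1m members.

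Retnlg made nearly all of the count that chose the members. The sum of Retnlg and Mmp8 had a median of 19 UMIs in 4T1p (quartiles 8 and 32.75, highest 173) and 18 in 4T1m (quartiles 9 and 46.5, highest 431), and Retnlg gave 95% and 95.4% of it. Retnlg alone reached 5 UMIs in 34 and 293 members, both genes did in 2 and 36, and Mmp8 alone in 1 and 5. Mmp8 was at 0 in 21 of 40 and 159 of 343 members. The few barcodes chosen through Mmp8 alone stood apart from the rest, with a median of 0 and 2 UMIs of S100a9 against 364.5 and 233 in those chosen through Retnlg alone. Members held more RNA than the neutrophil barcodes below the threshold, with medians of 3908 and 3313 UMIs per barcode against 2287.5 and 1962, and a count threshold favors deep barcodes.

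All 5 markers stood higher in members than in the 128 and 561 remaining neutrophil barcodes, those with fewer than 5 UMIs of Retnlg and Mmp8. Retnlg stood at 6947 CPM (interval 6563 to 7348) in 4T1p and 10069.5 (9898 to 10244) in 4T1m, against 224 and 337 in the remaining barcodes, which the rule fixes. Mmp8 stood at 364 (280 to 464) and 484 (447 to 523) CPM against 76.6 and 75.9, likewise by the rule. The other 3 markers were not counted by the rule. Wfdc21 stood at 3096 CPM (2841 to 3367) in 4T1p and 2614 (2527 to 2703) in 4T1m against 849 and 659. Prok2 stood at 960 (821 to 1116) and 841 (792 to 892) against 453 and 233, but 1 barcode held 49.7% of its UMIs among the 4T1p members, and without the top barcodes its log2 ratio there was 0.54 in place of 1.08. Stfa2 stood at 704 (586 to 840) and 1341 (1279 to 1405) against 316 and 636, and its reads may be shared with near-identical stefin A copies. In the monocytic barcodes the 5 markers lay between 0.88 and 23.9 CPM.

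**Figure D1:**
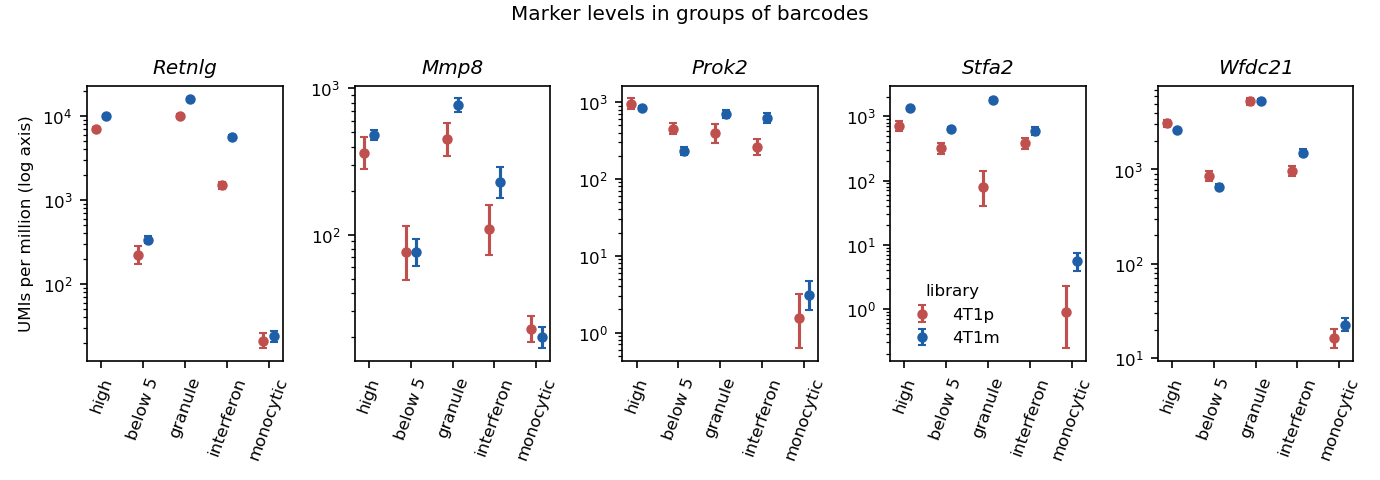
Level of each of the 5 markers (CPM, log axis) in 5 groups of barcodes, one point per library with a 95% Poisson interval; "high" are the members, "below 5" the remaining neutrophils, "granule" the Camp, Ngp and Ltf barcodes and "interferon" those with 3 or more interferon genes. Retnlg stands at 6947 and 10069.5 in the members, below the 10049.7 and 15731 of the granule barcodes, and under 24 in the monocytic barcodes.

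Splitting each barcode's UMIs at random separated the choice from the measurement. When members were chosen in one part of the UMIs, 41 and 359 barcodes were taken, and in the other, equal part Retnlg stood at 6385 CPM (5878 to 6923) in 4T1p and 10636 (10391 to 10884) in 4T1m. Against the remaining barcodes the log2 ratio in that other part was 4.62 and 4.59 for Retnlg, 1.86 and 2.59 for Mmp8, 1.91 and 2.04 for Wfdc21, 0.98 and 1.98 for Prok2 and 0.85 and 1.15 for Stfa2. For Retnlg and Mmp8 such a split must find the genes again, since both parts come from the same barcodes. No support is drawn from it.

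The markers had few UMIs in barcodes of another lineage, which serve as the background here, whatever the source of those UMIs. Prok2 had a UMI in 40% of the 4T1p members and 51.6% of the 4T1m members, against 0.51% and 1.20% of monocytic barcodes, whose median depths were 1813.5 and 5007 UMIs. After each barcode was thinned to 1000 UMIs, which kept 37 and 334 members, the Prok2 shares were 24.3% and 34.1%, against 0% and 0.40%. Wfdc21 had a UMI in 87.5% and 92.1% of members, 81.1% and 79.0% when thinned, against 2.19% and 6.12% of monocytic barcodes. Mmp8 had a UMI in 47.5% and 53.6%, 27.0% and 29.3% when thinned, against 4.24% and 6.45%. The shares of Prok2 and Wfdc21 lay above that background in both libraries, while that of Mmp8 is raised by the rule.

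The first question the design allows is how large a share of the neutrophils these barcodes made in each tumor. Members were 40 of 249 neutrophil barcodes in 4T1p, 16.1% (exact binomial interval 11.7 to 21.2), and 343 of 1025 in 4T1m, 33.5% (30.6 to 36.4). Of all barcodes past the limits they were 3.55% (2.55 to 4.80) of 1128 and 16.4% (14.8 to 18.1) of 2092. The intervals did not overlap, and the 4T1m share stayed the higher one under each of the 9 other settings run for the share of neutrophils and each of the 8 for the share of barcodes. With 1 library each, a difference between tumors, mice or captures cannot be told apart from one between 4T1p and 4T1m.

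The remaining neutrophil barcodes were 51.4% of neutrophils in 4T1p and 54.7% in 4T1m, and the granule group was 4.02% and 4.88%. The interferon group was 28.5% (23.0 to 34.6) and 6.93% (5.45 to 8.66), so its share was the lower one in 4T1m. This bears on the members, because the rule placed a barcode with at least 5 UMIs of Retnlg and Mmp8 in the interferon group when 3 interferon genes had a UMI, which took 19 of 66 such barcodes in 4T1p and 29 of 420 in 4T1m. Without the interferon limit the members were 23.7% of neutrophils in 4T1p and 36.3% in 4T1m. With the granule and interferon groups left out of the denominator they were 23.8% and 37.9%. When every barcode was thinned to 1000 UMIs and 3 UMIs of the pair were asked for, the shares were 15.4% and 35.0%.

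**Figure D2:**
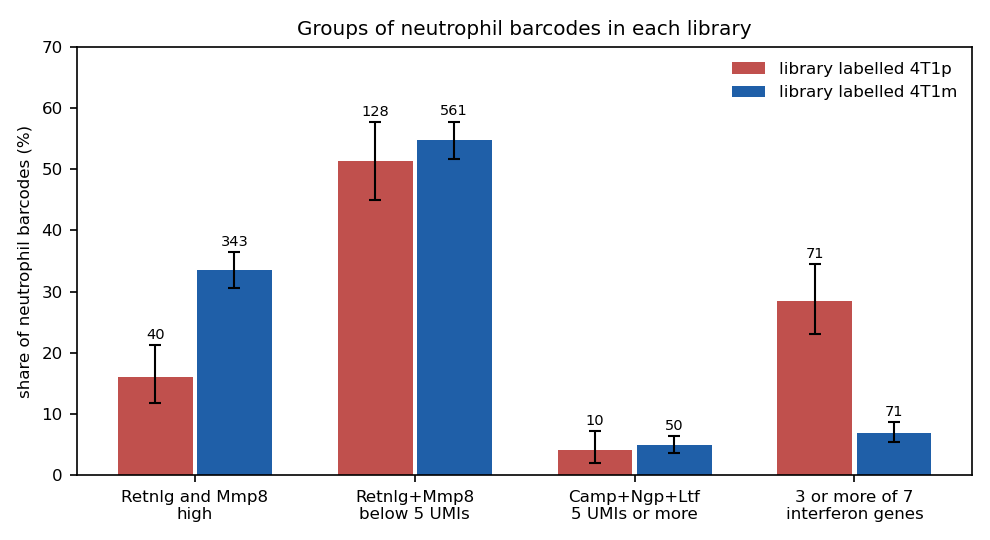
Share of neutrophil barcodes (%) in each of 4 groups, one bar per library with the exact 95% binomial interval. The Retnlg and Mmp8 high bar stands at 16.1% in 4T1p and 33.5% in 4T1m, and the interferon bar at 28.5% and 6.93%.

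Within the neutrophils the count of Retnlg and Mmp8 formed a slope with no gap at 5 UMIs. In 4T1m 312 barcodes outside the granule and interferon groups held no UMI of the pair, 170 held 1 or 2, 79 held 3 or 4, 94 held 5 to 9, 106 held 10 to 24 and 143 held 25 or more. The same bins held 83, 31, 14, 13, 12 and 15 barcodes in 4T1p. Barcodes just inside the threshold, with 5 or 6 UMIs, were 7 and 42, and those just outside, with 3 or 4, were 14 and 79. Lcn2, which encodes the secondary granule protein lipocalin 2, stood at 1016 and 1367 CPM just inside and 1414 and 959 just outside. S100a8, the other calprotectin subunit, stood at 31524 and 36577 just inside against 40055 and 40899 just outside. The order of inside and outside differed between libraries for Lcn2. Some lists stood further apart, with stefin A genes at 5702 inside and 14201 outside and inflammatory genes at 111843 and 73191 in 4T1p, where 7 and 14 barcodes were compared, and the monocyte and macrophage list at 5754 and 2015 in 4T1m.

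Along this slope Ly6g, Lcn2, S100a6 and Prok2 ended higher and Ccl3 and Nlrp3 lower in both libraries. From barcodes with no UMI of the pair to those with 25 or more, Ly6g went from 16.7 to 247 CPM in 4T1p and from 13.7 to 229 in 4T1m. These levels rest on 3 and 19 UMIs in 4T1p, where 1 barcode held all 3, and on 9 and 146 in 4T1m. In 4T1p Ly6g stood at 85.7 in the bin of 3 or 4 and at 18.4 in that of 5 to 9. Lcn2 went from 379 to 3586 and from 627 to 3312. S100a6, a calcium-binding S100 protein, went from 913 to 9329 and from 1333 to 10575. Prok2 went from 295 to 1585 and from 239 to 1207, but 1 barcode held 84 of its 122 UMIs in the highest bin of 4T1p, and without the top barcode of each bin it went from 248 to 523 there. In 4T1p it also stood at 1135 in the bin of 3 or 4, above the 515 and 426 of the next higher bins. In the opposite direction, Ccl3, a chemokine that attracts monocytes and neutrophils, went from 12921 to 1572 CPM in 4T1p and from 10016 to 3245 in 4T1m. Nlrp3, an inflammasome sensor, went from 991 to 259.9 and from 2386 to 964. The median depth was 1964 UMIs per barcode in the lowest and 5477 in the highest bin of 4T1p, and 1933 and 4208 in 4T1m, and its part in the slope was not tested.

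The summed levels of several lists also differed between the ends of the slope in the same direction in both libraries. The 14 secondary granule genes summed to 1737 CPM in the lowest and 8835 in the highest bin of 4T1p, and to 2354 and 8524 in 4T1m. The primary granule genes summed to 66.8 and 65.0 in 4T1p and 155 and 150.5 in 4T1m, with 790 in the bin of 5 to 9 of 4T1p. In members 5 of these 7 genes had no UMI, and Ctsc made 48 of 49 UMIs in 4T1p and 203 of 213 in 4T1m. The sums therefore describe mostly Ctsc, and no contrast with the secondary granule genes is drawn. The list of S100 and whey acidic proteins, which holds the choosing genes S100a8 and S100a9, summed to 63930 and 251663 in 4T1p and to 65642 and 222224 in 4T1m. Inflammatory neutrophil genes, of which the chemokine Cxcl2 held most UMIs, summed to 89938 and 42890 in 4T1p and to 93083 and 56636 in 4T1m. Tumor neutrophil genes, led by Ccl3, summed to 29911 and 7835 in 4T1p and to 23391 and 11415 in 4T1m. Further lists with higher sums in the highest bin were the type I interferon genes, from 10527 to 15579 in 4T1p and from 7187 to 12238 in 4T1m, the tertiary granule genes, from 2533 to 4561 and from 2445 to 4543, and the NADPH oxidase, from 2121 to 3508 and from 1815 to 2699. Lower sums were found for AP-1 and immediate-early genes, from 25251 to 14240 and from 18151 to 10986, and for immune suppression genes, from 4665 to 2482 and from 5468 to 3074. The circulation list went from 14062 to 8679 and from 11098 to 7448, and the survival list from 16022 to 10576 and from 12260 to 8927. Between these ends the order of the bins was not strict in either library. The bin of 5 to 9 UMIs stood at 85886 in 4T1p and 112088 in 4T1m for the S100 list, below the 119800 and 116131 of the bin of 3 or 4.

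**Figure D3:**
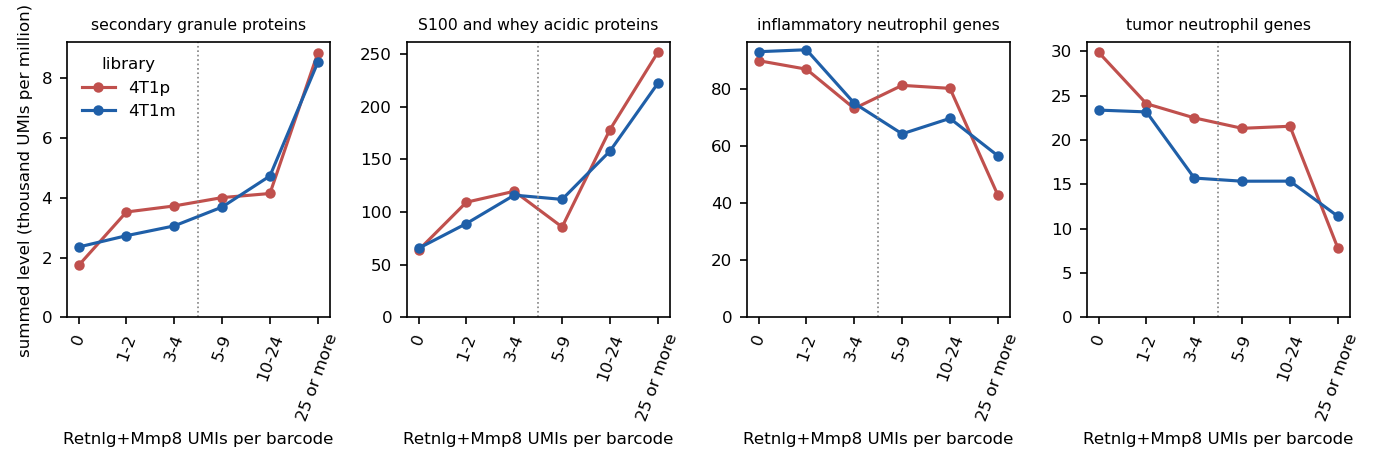
Summed level of 4 gene lists (CPM divided by 1000) in 6 bins of Retnlg and Mmp8 UMIs per barcode, one line per library; the dotted line marks the threshold of 5 UMIs. Secondary granule and S100 lists end higher than they start, and the inflammatory and tumor lists lower, in both libraries.

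Across the members, genes were ordered by their likeness to Retnlg and Mmp8. The likeness is Spearman's rho with the summed pair over the members thinned to 1000 UMIs, 334 in 4T1m, where the 8 nearest of 407 genes were chosen, and 37 in 4T1p. The nearest were S100a8 at 0.45 in 4T1m (0.39 in 4T1p), S100a6 at 0.40 (0.27), Alox5ap, the 5-lipoxygenase activating protein, at 0.33 (0.24), Lcn2 at 0.32 (0.27), S100a9 at 0.31 (0.34), Wfdc21 at 0.31 (0.47), Wfdc17 at 0.30 (0.48) and Arhgdib at 0.28 (0.14). The most opposite were Ccl3 at -0.32 (-0.31), Nlrp3 at -0.29 (-0.58), Cxcl2 at -0.29 (-0.40), Ccrl2 at -0.28 (-0.22) and Hspa5 at -0.28 (-0.24). Of the genes described along the slope, Ly6g and Prok2 were not among these. The median over the 407 genes was -0.04. The points are barcodes of 1 library each and share its depth and free RNA, so the values are a description.

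The members were next set beside the remaining neutrophils within each library, which shows what else the rule brought along. A gene counts as higher or lower when its log2 ratio of CPM was 1 or more in size, the same way in both libraries, among 4064 genes with at least 50 UMIs. Of these, 77 genes were higher in the members (1.89%) and 74 were lower (1.82%), while the median log2 ratio was -0.15 in 4T1p and -0.14 in 4T1m. Of the 74 lower genes, 12 had no UMI on one side in a library and count by the ratio of the other library alone, and 2 of these stay past the threshold with that side at a floor of 3 counts. Of the 77 higher ones this held for 3 and 2. These are descriptions, since the rule drew this contrast.

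The secondary granule list, which also holds Ifitm6, Anxa1 and rule genes such as Ngp, made the clearest group on the higher side. Of the 10 measured genes of that list, 6 were higher in both libraries, none was lower, and the median log2 ratio was 1.26 in 4T1p and 1.43 in 4T1m. Lcn2 stood at 2267 CPM in members and 744 in remaining barcodes of 4T1p, a log2 ratio of 1.61 (1.37 to 1.85), and at 2369.7 and 749 in 4T1m, a ratio of 1.66 (1.56 to 1.77). Ifitm6, an interferon-induced transmembrane family gene of myeloid cells, stood at 364 and 70.3 CPM in 4T1p, a ratio of 2.37 (1.65 to 3.14), and at 544 and 44.1 in 4T1m, a ratio of 3.63 (3.23 to 4.05). Pglyrp1, a granule protein that binds bacterial peptidoglycan, had ratios of 1.32 and 1.52, and Anxa1, which encodes annexin A1, 1.82 and 1.34. Cd177, a neutrophil surface glycoprotein, had 1.05 and 2.08, on 7 and 6 UMIs in 4T1p. Ngp, which the rule limits, completed the 6, on 3 and 2 UMIs in 4T1p.

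Calcium-binding and whey acidic proteins followed, with 4 of 8 measured genes higher and none lower. S100a6 stood at 6368 CPM in members against 1322 in 4T1p and 7644 against 1765 in 4T1m, log2 ratios of 2.27 (2.10 to 2.43) and 2.11 (2.05 to 2.18). Wfdc17 stood at 11605 against 4436 and at 13535 against 4134, ratios of 1.39 and 1.71. Wfdc21 had 1.87 and 1.99, and S100a8, part of the choice, 1.38 and 1.35. S100a9 stayed below the threshold at 0.81 and 0.89.

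Among surface and signalling genes Ly6g had the clearest difference, 24 UMIs in members against 8 in the remaining barcodes of 4T1p and 174 against 15 in 4T1m. Its log2 ratio was 2.42 (1.21 to 3.78) and 3.45 (2.69 to 4.32). Cxcr2, the receptor that draws neutrophils from the marrow, differed little, at 386 against 383 CPM in 4T1p and 413 against 327 in 4T1m, ratios of 0.01 (-0.44 to 0.45) and 0.33 (0.15 to 0.52). Csf3r had 0.11 and 0.14. None of the 16 measured genes of circulation and egress passed the threshold in either direction. Cxcr4, the receptor that holds neutrophils in the marrow, had -1.17 in 4T1p and -0.96 in 4T1m.

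Further genes on the higher side had metabolic or other roles, most on few UMIs. Glul, which encodes glutamine synthetase, had 24 against 2 UMIs in 4T1p and 59 against 15 in 4T1m, log2 ratios of 4.42 (2.41 to 7.54) and 1.89 (1.06 to 2.82). Tkt, the transketolase of the pentose phosphate pathway, had 1.83 and 1.65, and Slc2a3, which encodes the glucose transporter GLUT3, 1.41 and 1.38. Alox5ap, needed for leukotriene synthesis, stood at 1551 against 623 CPM and at 1785 against 656, ratios of 1.32 and 1.44. Adpgk, an ADP-dependent glucokinase, had 8 UMIs in members and none in the remaining barcodes of 4T1p, and 51 against 9 in 4T1m. Dfna5, Atxn10, Fam101b, R3hdm4 and Adam19 were also among the 15 highest, with the lower of the 2 library ratios between 1.72 and 2.20. Ccl5 rests on 1 barcode, which held 48 of its 49 UMIs among the 4T1p members, and without that barcode its ratio of 2.75 was -0.06.

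The stefin A genes, which lie next to each other on chromosome 16, did not go one way. Stfa2 had log2 ratios of 1.16 in 4T1p and 1.08 in 4T1m, Stfa3 1.65 and 1.83, and BC117090 1.68 and 1.33. Gm5416 was lower, at -3.04 and -1.19. BC100530 had 0.42 and 1.39, while Stfa2l1 (-0.24 and 0.18) and Gm5483 (-0.42 and 0.54) had opposite signs in the libraries. Their sequences are near-identical, so the split of reads among them is uncertain.

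On the lower side Ccl3 was the chemokine gene with the clearest difference. Ccl3 stood at 3851 CPM in members against 11062 in the remaining barcodes of 4T1p and 4139 against 9308 in 4T1m, log2 ratios of -1.52 (-1.64 to -1.40) and -1.17 (-1.22 to -1.12). It was the only one of 15 measured tumor neutrophil genes past the threshold, and the list had a median of -0.30 and -0.48. Of 17 measured inflammatory genes only Mirt1, a long noncoding RNA, passed it, at -1.25 and -1.002, and with TMM scaling it was short of it in 4T1m, at -0.85. The median of the list was -0.65 and -0.69. Cxcl2 stood at 35367 against 51272 CPM and 36875 against 56072, ratios of -0.54 and -0.60. Nlrp3 had -1.18 and -0.90, Csf1, a macrophage growth factor, -1.08 and -0.81, and Cd274, which encodes PD-L1, -0.53 and -0.86.

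The anti-apoptotic BCL2 family genes Bcl2a1a (-1.58 and -1.44) and Bcl2a1d (-1.55 and -1.29) were the 2 of 15 survival and death genes past the threshold, and they are near-identical copies. Of 26 measured type I interferon genes, Gbp3, Gbp5, Ifi47 and Oasl2 were lower and none was higher, with a list median of -0.41 and -0.32. The summed level of that list went the other way, at 13253 against 10925 CPM and 11300 against 7824, and Ifitm1, which had the most UMIs of its genes, had log2 ratios of 0.85 and 0.87. Tfrc, the transferrin receptor, had 2 against 13 UMIs in 4T1p and 23 against 65 in 4T1m, and Rcan1, an inhibitor of calcineurin, 2 against 18 and 7 against 28. Klhl6, Scimp, Nop56, Ccnf, Elmod3, Emsy, Tsix, Gm26809 and E230013L22Rik were also among the 15 lowest, on 0 to 2 UMIs each in the 4T1p members, and Gm20186 had 13 against 70 UMIs in 4T1p and 84 against 277 in 4T1m.

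In 4T1m the hemoglobin genes, which mark red cells, had the lowest ratios. In 4T1m Hbb-bs had 18 UMIs in members against 995 in the remaining barcodes, Hba-a2 1 against 157 and Hba-a1 7 against 241, and in 4T1p the members had none against 8, 3 and 1. In 4T1p these genes therefore have no ratio, and at the floor of 3 counts, 17.0 CPM, the members are not below the 25.5, 9.58 and 3.19 CPM of the remaining barcodes by the threshold. Without the top barcodes Hba-a1 had 0.24 in 4T1m. The list of stroma, endothelium, erythroid and platelet genes summed to 73.8 CPM in members and 89.4 in the remaining barcodes of 4T1p, and to 374 and 1220 in 4T1m. In 4T1m it reached 7437 CPM in the barcodes just outside the threshold, and with 3 UMIs of the pair asked for in place of 5 the 3 genes had ratios of 4.85 to 6.78. The monocyte and macrophage list had no gene of 14 past the threshold in both libraries and summed to 6976 against 3050 CPM in 4T1p and 2616 against 2693 in 4T1m, and 1 barcode held 62.5% of the 4T1p members' UMIs of it.

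**Figure D4:**
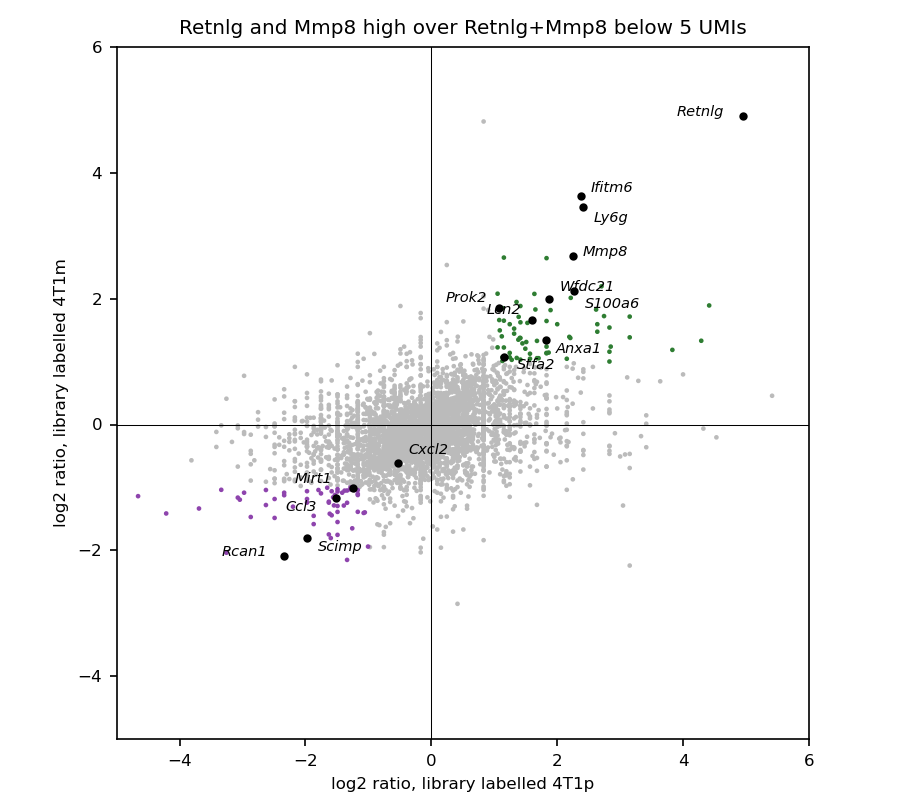
Log2 ratio of CPM, members over remaining neutrophils, of each of 3964 genes, with 4T1p on the x axis and 4T1m on the y axis; another 100 of the 4064 genes lie outside the axes or have no ratio. Retnlg stands at 4.96 and 4.90, S100a6 at 2.27 and 2.11 and Ccl3 at -1.52 and -1.17.

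Against the granule group, the 10 and 50 neutrophil barcodes with 5 or more UMIs of Camp, Ngp and Ltf, the members were lower in secondary granule genes and higher in most measured genes of the tumor neutrophil, inflammatory and immediate-early lists. Of 3133 genes, 714 were higher in both libraries (22.8%) and 126 lower (4.02%), with a median log2 ratio of 0.64 and 0.56, and 117 of the 714 had no UMI on one side in a library. All 14 secondary granule genes were lower, at medians of -3.08 and -3.03, and 3 of them (Camp, Ngp and Ltf) drew the groups. Their sum was 6152 CPM in members against 98795 in 4T1p and 6347 against 69724 in 4T1m. Of 15 tumor neutrophil genes 13 were higher, as were 14 of 17 inflammatory genes, 11 of 15 AP-1 and immediate-early genes and 12 of 21 glycolysis and hypoxia genes, and none of these lists had a lower gene. Genes of other cells were higher as well, 11 of 12 monocyte and macrophage genes, with medians of 3.87 and 1.59, and 3 of 4 stroma and platelet genes (Pecam1, Pf4 and Sparc). Lyz2 was lower, and with it the macrophage list summed to 6976 CPM in members against 8915 in 4T1p and 2616 against 5282 in 4T1m. The part of these cells in the contrast was not tested. Of 6 cell cycle genes Mki67, Ube2c and H2afz were lower. None of the 5 markers passed the threshold, and Retnlg stood at 6947 CPM in members against 10049.7 in 4T1p and 10069.5 against 15731 in 4T1m. Granule barcodes were the deepest, with medians of 14657.5 and 8554 UMIs, and 7 of 10 and 48 of 50 held at least 5 UMIs of Retnlg and Mmp8.

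The interferon group was 71 barcodes in each library. Of 3275 genes, 33 were higher in the members (1.01%) and 111 lower (3.39%), with medians of -0.05 in both libraries. Of 30 measured type I interferon genes 26 were lower and none higher, and 7 of them drew the groups. Outside that list few listed genes passed the threshold. Lcn2, Hp, which encodes haptoglobin, Stfa3 and Slc2a3 were higher in both libraries, as was Mmp8, whose level the rule shapes. Gm5416, Mki67 and C1qc were lower, and no gene of 15 tumor neutrophil, 17 inflammatory or 15 AP-1 genes passed the threshold. Retnlg in the interferon group stood at 1486 CPM in 4T1p and 5602 in 4T1m, and the rule asked no minimum of Retnlg and Mmp8 of that group.

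The last comparison set the members of the 2 tumors beside each other. Their median mitochondrial share of UMIs differed, at 1.96% in 4T1p and 3.24% in 4T1m. The mitochondrial gene mt-Nd4l had a log2 ratio of 2.00, and from 0.62 to 3.04 over the settings run. The part of this difference in the comparison was not tested. No neutrophil identity gene passed the threshold, and Nlrp3, Stfa3 and Hif1a were higher in 4T1m. Of 17 interferon genes 5 were lower, among them Isg15 and Rsad2, which the rule limits. Without the members that held macrophage genes, 3 of the 5 fell short of the threshold. Of 2629 genes with at least 50 UMIs, 305 were higher in 4T1m by a log2 ratio of 1 or more (11.6%) and 108 lower (4.11%), and the median was 0.08. The interval lay wholly above 0 for 200 of the 305 and wholly below 0 for 104 of the 108. With TMM scaling, which adds 0.31 to every log2 ratio between the libraries, the split was 536 and 55, and higher genes made 90.7% of the calls in place of 73.9%. Ratios between -0.31 and 0 therefore change sign with the scaling.

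With all members and as scaled here, none of the 5 markers passed the threshold between the libraries. Retnlg and Mmp8 chose the members, so the rule shapes their levels. Retnlg had a log2 ratio of 0.54 (0.45 to 0.62), Mmp8 0.41 (0.04 to 0.81) and Stfa2 0.93 (0.67 to 1.20), all short of the threshold. Over the settings run Stfa2 ranged from 0.67 to 1.27. It passed the threshold at 1.27 (0.95 to 1.60) without the top barcode of each library. Wfdc21 had -0.24 (-0.38 to -0.11) and Prok2 -0.19 (-0.43 to 0.05), values that TMM scaling turns above 0. Without the 4T1p barcode that held 84 of its 169 UMIs, and the top barcode of 4T1m, Prok2 stood at 495 and 817 CPM, a ratio of 0.72 (0.40 to 1.06). Without the members that held 5 or more UMIs of MHC class II, Apoe and C1q genes it was -0.73 (-0.97 to -0.47), and Mmp8 then had -0.23 (-0.61 to 0.17). None of the 22 neutrophil identity genes passed the threshold, with a median of 0.11, and Ly6g had -0.02 (-0.65 to 0.66). S100a8 (-0.08) and S100a9 (-0.04) were below 0 as scaled here and above it with TMM scaling, and Lcn2 had 0.06 (-0.09 to 0.22).

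Of 17 measured type I interferon genes 5 were lower in 4T1m and none was higher, with a median of -0.65, against 4.11% of all genes lower. The 5 were Irf7, Zbp1, Isg15, Rsad2 and Ly6e. Isg15 and Rsad2 are among the genes that the rule limits, so the count of 5 is not free of the choice and no support is drawn from it. Ifi27l2a, an interferon-induced gene that is not on the list, had 234 UMIs in 24 barcodes (1329 CPM) of 4T1p and 429 UMIs in 103 barcodes (330.4 CPM) of 4T1m, a log2 ratio of -2.01 (-2.24 to -1.77). Irf7, a transcription factor of the interferon response, stood at 170.4 and 47.0 CPM, a ratio of -1.86 (-2.51 to -1.18), and Zbp1, a nucleic acid sensor, at 125 and 33.9, a ratio of -1.88 (-2.65 to -1.07). Isg15 and Rsad2, which the rule counts, had -1.45 and -1.72, and Ly6e had -2.31, of which 1 barcode held 60% of the 4T1p UMIs (-1.33 without it). Without the members that held 5 or more UMIs of MHC class II, Apoe and C1q genes, Rsad2 had 0.11 (-0.94 to 1.37), Isg15 -0.82 and Ly6e -0.52 (-1.67 to 0.88), all short of the threshold, while Ifi27l2a had -1.78, Zbp1 -1.89 and Irf7 -1.20. The rule allows up to 2 of its 7 interferon genes in a member.

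Of 21 glycolysis and hypoxia genes Gapdh and Eno1 were lower in 4T1m and none was higher, with a median of -0.48, a count of 2 that is near the 4.11% of all genes and is no result about the list. Gapdh, a glycolytic enzyme, had 461 UMIs in 39 of 40 barcodes (2619 CPM) and 1126 UMIs in 271 of 343 barcodes (867 CPM), a ratio of -1.59 (-1.75 to -1.44). Eno1, which encodes enolase 1, had -1.03 (-1.30 to -0.75). Klf2, a transcription factor of quiescence and migration, had -1.19 (-1.38 to -0.99), Tsc22d3, a glucocorticoid-induced gene, -1.82 (-2.43 to -1.19), and Socs3, a feedback inhibitor of cytokine signalling, -1.34 (-1.64 to -1.02). These ratios stayed past the threshold without the top barcode of each library, other than that of Eno1, which was then -0.91. With TMM scaling Klf2 had -0.88 and Eno1 -0.72, short of it, and without the interferon limit Klf2 had -0.99.

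Of 4 measured cell cycle genes the tubulin genes Tuba1b, with 22 and 34 UMIs, and Tubb5, with 22 and 55, were lower in 4T1m, at -2.25 (-3.07 to -1.41) and -1.56 (-2.30 to -0.78), and the median was -0.79. Without the members that held 5 or more UMIs of MHC class II, Apoe and C1q genes Tubb5 had -0.68 (-1.85 to 0.72). Secondary granule genes had a median of 0.07, with Ngp alone of 9 past the threshold, on 3 and 49 UMIs. Inflammatory genes had a median of -0.05 and tumor neutrophil genes -0.20, values that TMM scaling turns above 0. In the inflammatory list Nlrp3 was higher and Cxcl1, Icam1 and Il1a lower. In the tumor list Hmox1, which encodes heme oxygenase 1, was lower at -1.003 (-1.23 to -0.77), a call that the shift of 0.31 under TMM scaling ends. Il1a, which encodes interleukin 1 alpha, had -1.57, and -1.09 without the top barcodes, while Icam1 had -1.33 and then -0.68.

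On the higher side, Nlrp3 stood at 443 CPM in 4T1p and 1161 in 4T1m, a log2 ratio of 1.39 (1.06 to 1.74), though in both libraries it was lower in members than in the remaining barcodes. Hif1a, the oxygen-sensing transcription factor, had 1.16 (0.82 to 1.52), and Ptprc 1.05 (0.81 to 1.30). Both fell short of the threshold under another setting, Hif1a at 0.91 without the interferon limit and Ptprc at 0.96 without the members that held stroma genes. Fbxl5, an iron-sensing ubiquitin ligase subunit, stood at 392 and 1156 CPM, a ratio of 1.56 (1.21 to 1.93), and Rab11fip1, a vesicle recycling protein, at 96.6 and 335, a ratio of 1.79 (1.10 to 2.59). Stfa3 stood at 131 and 429 CPM, a ratio of 1.72 (1.11 to 2.38) subject to the reads shared among stefins. Areg, which encodes the growth factor amphiregulin, had no UMI in 4T1p and 125 UMIs in 22 barcodes of 4T1m, at least 5.65-fold higher against a floor of 3 counts over the group. Hspa1b, an inducible heat shock protein gene, had 3 UMIs in 2 barcodes and 270 UMIs in 35, a ratio of 3.61 (2.05 to 5.90). Of the 270, 81 lay in 1 barcode, and over the settings run the ratio ranged from 1.17 to 4.66. Hspa1a had -1.45 without the members that held stroma genes and -1.10 without those that held macrophage genes. With the top barcode of each library left out it had 0.66 (0.01 to 1.37), so its direction rests on the top barcodes.

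The largest ratios rested on single barcodes. Tagln, Igfbp7, Col4a1, Sparc, Col4a2, Col6a3, Cald1 and Col1a1, genes of fibroblasts and vessel walls, were 8 of the 10 highest in 4T1m, and 1 barcode of 19808 UMIs held most of the UMIs of each, 251 of 253 for Tagln. In the other direction Il6 (-6.13), Ccl2 (-3.37) and Mmp12 (-2.58) rested on 1 4T1p barcode of 13148 UMIs that had entered through 6 UMIs of Mmp8, with 37 UMIs of S100a8 and none of Retnlg or S100a9. That barcode held all 57 UMIs of Il6, 192 of 214 of Ccl2, 72 of 73 of Mmp12 and 370 of 425 of Cxcl1. A second 4T1p barcode, of 14299 UMIs, held 55 of 79 UMIs of Ccl7, 48 of 49 of Ccl5, 26 of 32 of Gatm and 274 of 297 of Cd74.

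Without the barcode with most UMIs of each gene in each library, Ccl5 had 0.71 in place of -4.11, Cd74, the MHC class II invariant chain, 0.69 in place of -2.21, Mmp12 1.34 in place of -2.58 and Cxcl1 0.71 in place of -1.74. H2-Ab1 had -0.06 in place of -2.21, H2-Aa -0.18 in place of -2.15, Gatm -0.67 in place of -2.88 and Ccl2 -0.82 in place of -3.37. Ccl7, a monocyte chemoattractant, then had -3.34, but a further 22 of its 79 4T1p UMIs lay in the barcode of 13148 UMIs. With 10 UMIs of Retnlg and Mmp8 required it had 1.15. Ifi27l2a remained past the threshold at -1.90. Cxcl3, a neutrophil chemoattractant, moved from 0.54 to 1.99 and Saa3, an acute phase gene, from 0.69 to 2.20, since 1 4T1p barcode held 68.3% and 71.0% of their UMIs. Over all genes this setting gave 547 higher and 46 lower.

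Genes of other cells moved with these results. The monocyte and macrophage list had 10 of 12 measured genes lower in 4T1m and none higher, summed to 6976 and 2616 CPM, and was led by Cd74 with 297 UMIs in 4T1p and by Lyz2 with 929 in 4T1m, with Ms4a7 at 0 in 4T1p. The stroma, endothelium, erythroid and platelet list summed to 13 and 486 UMIs, of which Sparc held 209 in 4T1m, and Dcn, Cdh5 and Ppbp were at 0 in both libraries. Members with 5 or more UMIs of MHC class II, Apoe and C1q genes were 9 of 40 and 51 of 343, and with all of them left out the counts were 342 higher and 80 lower. Members with 2 or more UMIs of the stroma list were 3 and 20, and without them the counts were 339 and 95. Whether these barcodes held 2 cells, or a cell and free RNA, was not tested.

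**Figure D5:**
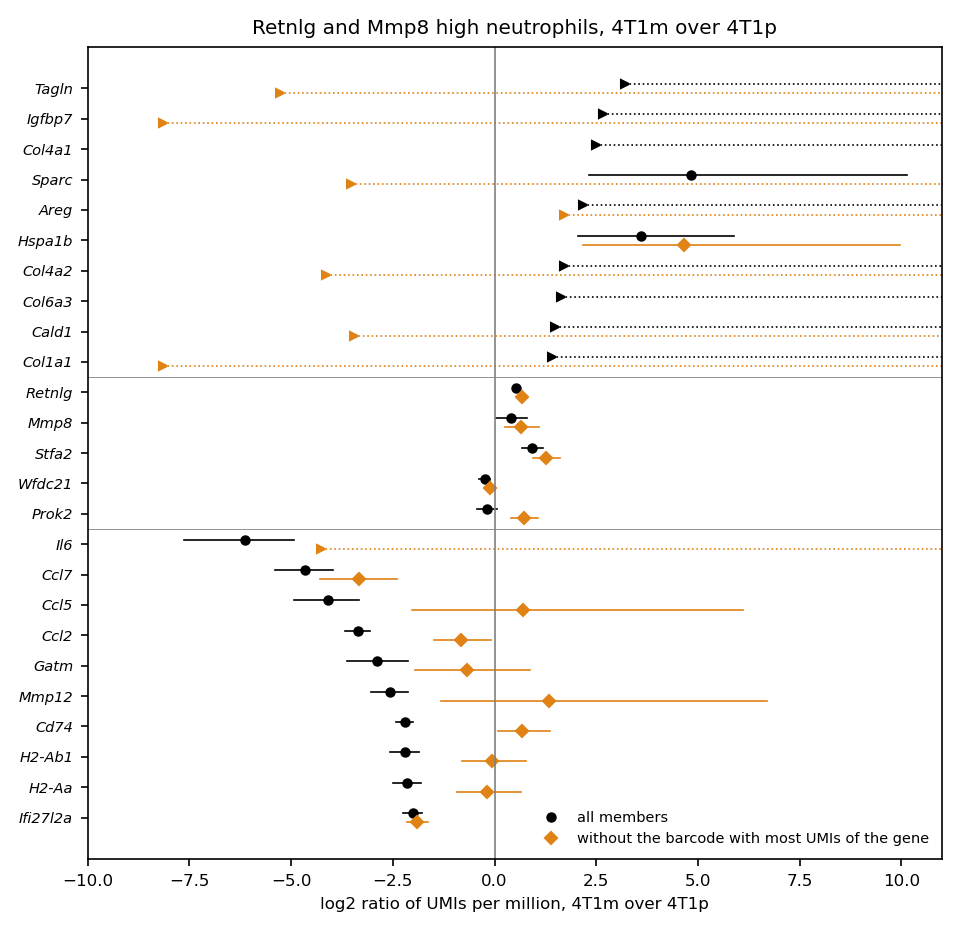
Log2 ratio of CPM, 4T1m over 4T1p, of named genes within the members, with 95% intervals for all members (circles) and the value without the barcode with most UMIs of the gene in each library (diamonds); an arrow marks the bound of a gene with no UMI in 4T1p. The diamonds of Ccl5, Cd74 and Mmp12 lie above 0 where their circles lie below it, and that of Ifi27l2a stays at -1.90.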

How the data were processed

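For each gene and barcode the files hold raw UMI counts, deposited after Cell Ranger had aligned the reads to mm10 (GRCm38) and kept the barcodes it called as cells, and the matrix headers give version 3.1.0. The files list 28692 features, and 0 per-sample columns went unused. Groups of barcodes came from sums of the deposited counts, as given at the start of the report. The members and the gene lists were chosen with earlier results of these data known.

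A level is the summed count of a gene as CPM with an exact Poisson interval, a share has an exact binomial interval (Clopper-Pearson), and a log2 ratio of CPM takes its interval from the exact binomial share of one count in both. With 1 library per group there was no test and no p-value. Where a group had no UMI of a gene, the floor was 3 counts over the group. Genes needed 50 UMIs in the groups compared, and a ratio was past the threshold at 1 on the log2 scale (2-fold). Named genes were the markers, listed genes past the threshold, the 10 highest and lowest between libraries, the 15 highest and lowest against the remaining neutrophils, and the 8 nearest to Retnlg and Mmp8. Csf1, Cxcr4, Cd274, Fbxl5, Rab11fip1, Tsc22d3, Socs3, Klf2, Cxcl3 and Saa3 among others were named after their values were seen. A few genes that this rule names are not reported here. Doublets were not removed. Scrublet, run at 1% per 1000 cells, marked 13 and 44 barcodes past the limits, 2 and 8 of them members, and their removal is an alternative. The ratio calculation was tested on simulated counts. Python 3.11.15, NumPy 2.4.6, pandas 2.3.3, SciPy 1.17.1 and Scanpy 1.11.5 were used, and edgeR 4.0.16 for TMM factors only.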

Additional observations from a re-analysis of the deposited data

Results flagged for a closer look

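The signs of 2 stefin A genes differed between the libraries. The log2 ratio of members over remaining neutrophils was 0.18 (0.09 to 0.27) for Stfa2l1 in 4T1m and -0.24 (-0.45 to -0.03) in 4T1p. For Gm5483 it was 0.54 (0.45 to 0.62) in 4T1m and -0.42 (-0.62 to -0.22) in 4T1p. The difference was not tested, since each library is 1 sample. Both genes belong to a cluster of near-identical copies whose reads cannot be told apart with certainty.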

How the results depend on the processing

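No paired analysis was possible because each group is 1 library. Depth limits the 4T1p side, where the members held 176038 UMIs against 1298474 in 4T1m, so a gene with few UMIs there has a wide interval. Of the counts, shares and levels that answer a comparison, 63 values under other settings stayed near the reported one and 39 moved, while of the values of single genes 2061 stayed, 355 moved and 23, all with a reported ratio past the threshold, changed sign. Another 48 of the stayed and moved values, with a reported ratio short of the threshold, also changed sign. The share of members was the higher one in 4T1m throughout. The settings without a gene's top barcode, without barcodes of stroma or MHC class II genes, with the other denominator, and without the top barcode of each bin were chosen after seeing the data. The cause of a change was not tested.

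Genes higher and lower in 4T1m (305 and 108) were 536 and 55 with TMM scaling, 614 and 244 with barcodes thinned to 1000 UMIs, 708 and 325 with at least 20 UMIs per gene, 61 and 28 with at least 200, and 547 and 46 without the top barcode of each gene. With 10 UMIs of the pair required, 68 were lower. The 77 genes higher than in the remaining neutrophils were 137 with at least 20 UMIs and 38 with at least 200. The 74 lower ones were 181 with 10 UMIs of the pair required, 43 with totals free of rule, mitochondrial and rRNA genes, 48 with TMM scaling, 180 when thinned, 170 with at least 20 UMIs, 19 with at least 200 and 112 without the top barcodes. In UMIs held back from the choice, Retnlg stood at 6385 CPM in 4T1p and 10636 in 4T1m, and Wfdc21 at 2749 in 4T1m.

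The share of neutrophils in 4T1p and 4T1m was 21.7% and 41.2% with 3 UMIs of the pair, 10.8% and 24.3% with 10, and 23.8% and 37.9% with the granule and interferon groups left out of the denominator. It was 23.7% in 4T1p without the interferon limit. The share of barcodes past the limits was 2.39% and 11.9% with 10 UMIs of the pair and 6.18% and 20.4% with a Ptprc UMI required. It was 5.23% in 4T1p without the interferon limit. In 4T1m it was 20.2% with 3 UMIs of the pair, 20.5% at a mitochondrial limit of 5%, 18.8% with at least 1000 UMIs per barcode and 18.4% when thinned.

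Signs of ratios past the threshold changed for genes that rest on few UMIs or barcodes. With 10 UMIs of the pair the log2 ratio of 4T1m over 4T1p was 4.15 for Ccl2, 0.68 for Ccl5, 1.15 for Ccl7, 3.30 for Mmp12 and -3.02 for Sparc, and Ccl5 in 4T1p members over remaining neutrophils had -4.34. With Scrublet doublets removed Ccl5 had 1.24, Cd74 1.14, Gatm 0.16 and H2-Ab1 0.065 between libraries, and Ccl5 in 4T1p -2.76 against the remaining neutrophils. Without the top barcodes Ccl5 had 0.71, Cd74 0.69 and Mmp12 1.34 between libraries, and against the remaining neutrophils Hba-a1 had 0.24 in 4T1m and Ccl5 -0.064 in 4T1p. Without members that held stroma UMIs Sparc had -1.97. With 3 UMIs of the pair Hba-a1 had 5.42, Hba-a2 6.78 and Hbb-bs 4.85 in 4T1m against the remaining neutrophils. In 4T1p Ccnf had 0.22 as a mean over barcodes, Elmod3 0.49 at the mitochondrial limit of 5% and Tfrc 1.03 when thinned.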

Other observations

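Further lists of neutrophil function were measured in the members. The 6 genes of the NADPH oxidase, which makes the neutrophil respiratory burst, summed to 2977 CPM in 4T1p members and 2467 in 4T1m members, against 2114 and 1997 in the remaining neutrophils, and none passed the threshold. Of 12 pattern recognition receptors none passed it against the remaining neutrophils, and Tlr4, the endotoxin receptor, alone of 11 was higher in 4T1m than in 4T1p, on 6 and 163 UMIs. None of 8 Fc and complement receptors passed it in either comparison, with summed levels of 5266 and 4049 CPM. Alox5, which encodes 5-lipoxygenase, had 3 UMIs in 4T1p and 49 in 4T1m, a log2 ratio of 1.15 (-0.48 to 3.47) whose interval spans 0. Of 14 measured transcription factors Ets1 and Hif1a were higher in 4T1m and Klf2 and Klf4 lower. Of the 34 UMIs of Klf4 in 4T1p members, 20 lay in the barcode of 13148 UMIs and 12 in that of 14299, which also held most UMIs of Il6, Ccl2 and Cd74. Nfe2, a factor of the granulocytic and megakaryocytic lines, was the only one of 16 past the threshold against the remaining neutrophils, on 5 against 1 UMIs in 4T1p and 36 against 13 in 4T1m. The chemokine receptor Cxcr1 and the integrins Itga4 and Itgal, from the circulation list of 15 measured genes, were higher in 4T1m, on 2, 3 and 8 UMIs in 4T1p. Ets1 had 3 UMIs there and an interval that spans 0. Of all genes measured between the libraries 11.6% were higher in 4T1m, so 1 of 11, 2 of 14 and 3 of 15 are near the background and are no result about these lists.

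The limit on mitochondrial UMIs removed 4 barcodes of 4T1p and 49 of 4T1m that met every other part of the choice. No barcode was removed from the members by the upper limits on UMIs or genes.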
